A study of Mus musculus with 10 samples.

Results

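The secretory pathway and endoplasmic reticulum (ER) folding genes of mouse liver were followed across normal liver and MYC-driven liver tumors. Members were taken by symbol alone: every entry of the expression table whose symbol begins with Tmed, Pdia, Ssr or Sec and then a digit, together with Hspa5, Hsp90b1, Calr, Canx, Xbp1, Bhlha15, Creb3l3, Atf6, Ddit3, Atf4, Ern1 and Edem1. This gave 59 of the 16697 gene entries. Of these, 57 passed the filter on low values (1 FPKM or more in 3 or more of the libraries) and were tested, while Pdia2 and Sec14l5 did not pass. Bhlha15 reached 1 FPKM only in c-MYC tumors and Tmed8 only in c-MYC/FOXO1AAA tumors, so both passed the filter only through the group where they were high. The pattern also takes 4 Sec14-like genes, which code for lipid-binding proteins and not for parts of the export machinery, and Tmed10-ps, a pseudogene whose reads cannot be told apart with certainty from those of Tmed10.

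RNA-Seq libraries came from 4 normal livers (NL), 3 tumors induced by c-MYC with an empty vector (c-MYC) and 3 tumors induced by c-MYC with FOXO1AAA, a FOXO1 made constitutively active (c-MYC/FOXO1AAA). The labels give the genotype as WT and the strain as C57BL/6 for all 10 libraries, whereas the methods name FVB/N, so the strain is uncertain. The labels give neither age nor sex. Tumors were raised by hydrodynamic tail vein injection, which delivers plasmids to hepatocytes, with the transgenes driven by the EF1α promoter and integrated by a sleeping beauty transposase. No library of injected mice without c-MYC is in the data, so the injection and the oncogene cannot be told apart in a comparison with NL. The methods count libraries as mice, the labels name no animals, and p-values measure the spread between these libraries.

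Proteins destined for secretion enter the ER through the Sec61 channel, are folded there by chaperones such as BiP (Hspa5) and by disulfide isomerases, and leave in vesicles coated with COPII (the Sec13, Sec23, Sec24 and Sec31 proteins). When unfolded protein builds up, the sensors IRE1α (Ern1), ATF6 and PERK raise folding capacity: IRE1α cuts an intron out of the Xbp1 mRNA so that it codes for an active transcription factor, and PERK leads to translation of ATF4 and its target CHOP (Ddit3). Hepatocytes are professional secretory cells that make most plasma proteins, and they carry a large ER.

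The sequence that IRE1α removes from the Xbp1 mRNA is shown because Ern1 and Xbp1 are followed first below. It was located in GENCODE M21 transcripts of GRCm38, is 26 bases long and is in capitals, with 10 bases of the coding sequence on either side.
Xbp1, chr11:5524269-5524314, plus strand: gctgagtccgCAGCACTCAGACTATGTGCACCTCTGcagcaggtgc
The deposited values are sums per gene, so cut and uncut Xbp1 mRNA were not distinguished.

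Promoters of the members (250 bases before to 50 after the RefSeq start, GRCm38.p6) were searched on both strands for the ER stress response element, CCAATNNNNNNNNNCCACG, the arrangement through which ATF6 and XBP1 are known to act on chaperone genes.
Promoters were found for 51 members, and 5 of them held it: Hspa5, Hsp90b1, Calr, Canx and Pdia6 (9.8%, against 0.119% of 32851 promoters). Member shares here and below count genes, whereas the background counts promoters. The 51 members had 57 promoters, of which 5 held the element.
All 5 are folding genes, and Hsp90b1 held 2 copies. The element is known from chaperone genes, and all of the 5 but Pdia6 were taken as members by name. The shares are therefore a description and not a test of the members. The elements are printed 5′ to 3′ on the strand of the gene with 5 bases on each side, the element in capitals. Where it reads CGTGG to ATTGG it lies in the opposite orientation.
Hspa5, chr2:34772020-34772048, plus strand: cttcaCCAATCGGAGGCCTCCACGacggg
Hsp90b1, chr10:86705528-86705556, minus strand: gagtgCGTGGTGAGGCACGATTGGtgagt
Hsp90b1, chr10:86705633-86705661, minus strand: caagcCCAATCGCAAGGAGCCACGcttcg
Calr, chr8:84847070-84847098, minus strand: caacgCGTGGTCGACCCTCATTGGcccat
Canx, chr11:50325795-50325823, minus strand: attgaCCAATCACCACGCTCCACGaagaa
Pdia6, chr12:17266486-17266514, plus strand: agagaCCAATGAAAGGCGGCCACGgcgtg
The UPRE, TGACGTGG, which shares CGTGG with the reverse of the stress response element, was found in 3 members, all of the COPII coat (Sec16b, Sec23a and Sec24d, 5.88% of 51, against 0.676% of promoters). These are also shown because Sec24d and Sec16b are among the COPII genes with the largest changes below.
Sec24d, chr3:123267465-123267482, plus strand: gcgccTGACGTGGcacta
Sec16b, chr1:157506747-157506764, plus strand: gtggcTGACGTGGcacgg
Sec23a, chr12:59011999-59012016, minus strand: cccttTGACGTGGcagag
In GENCODE M21 the Hspa5, Sec16b and Sec24d elements fall in the first exon of an annotated transcript, upstream of the RefSeq start, and the Sec23a element begins 6 bases after the start.
The ERSE-II, ATTGG and CCACG with 1 base between them, and the C/EBP-ATF element, TGATGNAAT, were found in no member promoter, against 0.0365% and 0.965% of all promoters. The forkhead motif GTAAACA was found in Sec16b (1.96% of members, against 3.65%) and the E-box CACGTG in 8 members (15.7%, against 7.15%). A match describes these letters and is not evidence of binding.

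Each library held between 13123641 and 20547630 reads in the listed genes, and the values are FPKM (fragments per kilobase of transcript, scaled to library size), formed with scaling factors of 0.65–0.68 in NL, 1.26–1.29 in c-MYC and 1.45–1.5 in c-MYC/FOXO1AAA. Summed FPKM of 8 hepatocyte markers ran from 86259 to 96996 in NL, from 3659 to 5519 in c-MYC and from 938 to 1673 in c-MYC/FOXO1AAA, so the defining markers of the labeled tissue were far lower in the tumors. Each of the 8 was called lower than in NL in both tumor groups. Between the tumors 5 were called lower in c-MYC/FOXO1AAA, while Apoc3 and Cyp2e1 were called higher and Alb was not called. Summed macrophage markers (7 of 7) were at 197–346 FPKM in NL, 95.9–137 in c-MYC and 47.02–79.999 in c-MYC/FOXO1AAA, and endothelial markers (6 of 6) at 45.2–60.7, 9.81–17.3 and 26.3–40.989. Neither set of sums overlapped between groups, but genes within each set went in different directions. Clec4f fell from 149–262 FPKM in NL to 1.42–7.36 in c-MYC, where 3 of 7 macrophage genes were called lower and Cd68 higher. Of 5 tested endothelial genes, only Cdh5 was called in c-MYC/FOXO1AAA against c-MYC (18.1–35.8 FPKM against 3.21–6.08). There 2 of the 5 had a positive and 3 a negative log2 fold change. Bile duct markers (5 of 5) were at 20.1–27.9, 17.6–32.4 and 30.2–38.1. Of the 4 tested, 2 were called higher and 1 lower in c-MYC against NL, with log2 fold changes of 3.71 for Epcam and −3.73 for Spp1. Among all tested genes, 24.5% were called higher and 23.6% lower there. The shares were 15.9% and 12.7% in c-MYC/FOXO1AAA against c-MYC, and 31.2% and 26.6% in c-MYC/FOXO1AAA against NL. The part of these cells in the members' values was not tested. Foxo1 stood at 70.1–95.6 FPKM in c-MYC/FOXO1AAA against 5.17–6.46 in c-MYC and 6.69–7.87 in NL, as its label says. Mouse Myc was lower in the tumors (0.561–1.11 FPKM) than in NL (4.17–22.2), and whether reads of the injected MYC were counted there is not given in the sources used here. The NL libraries stood apart from each other in genes that were high in c-MYC. For 48 genes with a c-MYC mean of at least 20 FPKM and under 1% of that mean in NL 2, the level in NL 1 was a median of 8.68% of the c-MYC mean (quartiles 7.27 and 10.3), in NL 3 4.02% (3.27 and 4.91) and in NL 4 2.14% (1.49 and 3.28), and 40 of the 48 followed that order. For 13 such genes chosen through c-MYC/FOXO1AAA 2 in place of NL 2, the median was 1.04% in c-MYC/FOXO1AAA 1 and 7.02% in c-MYC/FOXO1AAA 3. These genes were chosen after the values were seen. Whether reads were carried over between libraries was not tested, so the lower values of genes high in c-MYC, in NL and in c-MYC/FOXO1AAA 3, may not be levels of those tissues, and Tmed6 and Bhlha15 below are members with the same order of NL 1 and NL 2. Tmed6 is itself among the 48 genes and Bhlha15 is not. Without c-MYC/FOXO1AAA 3, 18 of 18 members called in c-MYC against NL, 16 of 19 called in c-MYC/FOXO1AAA against c-MYC (all but Ddit3, Pdia4 and Xbp1) and 24 of 26 called in c-MYC/FOXO1AAA against NL (all but Ssr4 and Tmed8) were called again. Without NL 1, all 18 members called in c-MYC against NL and all 19 called in c-MYC/FOXO1AAA against c-MYC were still called, and 25 of 26 in c-MYC/FOXO1AAA against NL (all but Pdia6).

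Differences were tested with limma against a fold change of 1.5, and a gene was called at a Benjamini-Hochberg adjusted p under 0.05 over 14017 genes. Fold changes are log2 of the deposited FPKM (a prior count of 2 included) ± SE. Between c-MYC and NL, 5 of 57 members were higher and 13 lower, against 24.5% and 23.6% of all tested genes called higher and lower. The share of members called lower (22.8%) was near that background and the share called higher (8.77%) below it. Between c-MYC/FOXO1AAA and c-MYC, 3 were higher (5.26%) and 16 lower (28.1%), against 15.9% and 12.7% of all genes. Between c-MYC/FOXO1AAA and NL, 5 were higher (8.77%) and 21 lower (36.8%), against 31.2% and 26.6%. With the background limited to genes averaging 5 FPKM or more, it was 25.9% and 24.8% in the first comparison, 11.1% and 14.5% in the second and 28.0% and 30.4% in the third. By overlap alone, 14 members lay above and 20 below in all c-MYC libraries against all NL libraries (39.0% and 34.9% of all genes). In c-MYC/FOXO1AAA against c-MYC 6 lay above and 41 below (32.7% and 30.7%), and against NL 8 above and 43 below (44.1% and 36.0%). The median log2 fold change of the members was −0.16, −0.63 and −0.72 in the 3 comparisons, where the median of all tested genes was 0.08, 0.03 and 0.21. Each pair of comparisons shares libraries, so they do not back each other up. In tissue, fewer cells of a type and less RNA per cell cannot be told apart.

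**Figure D1:**
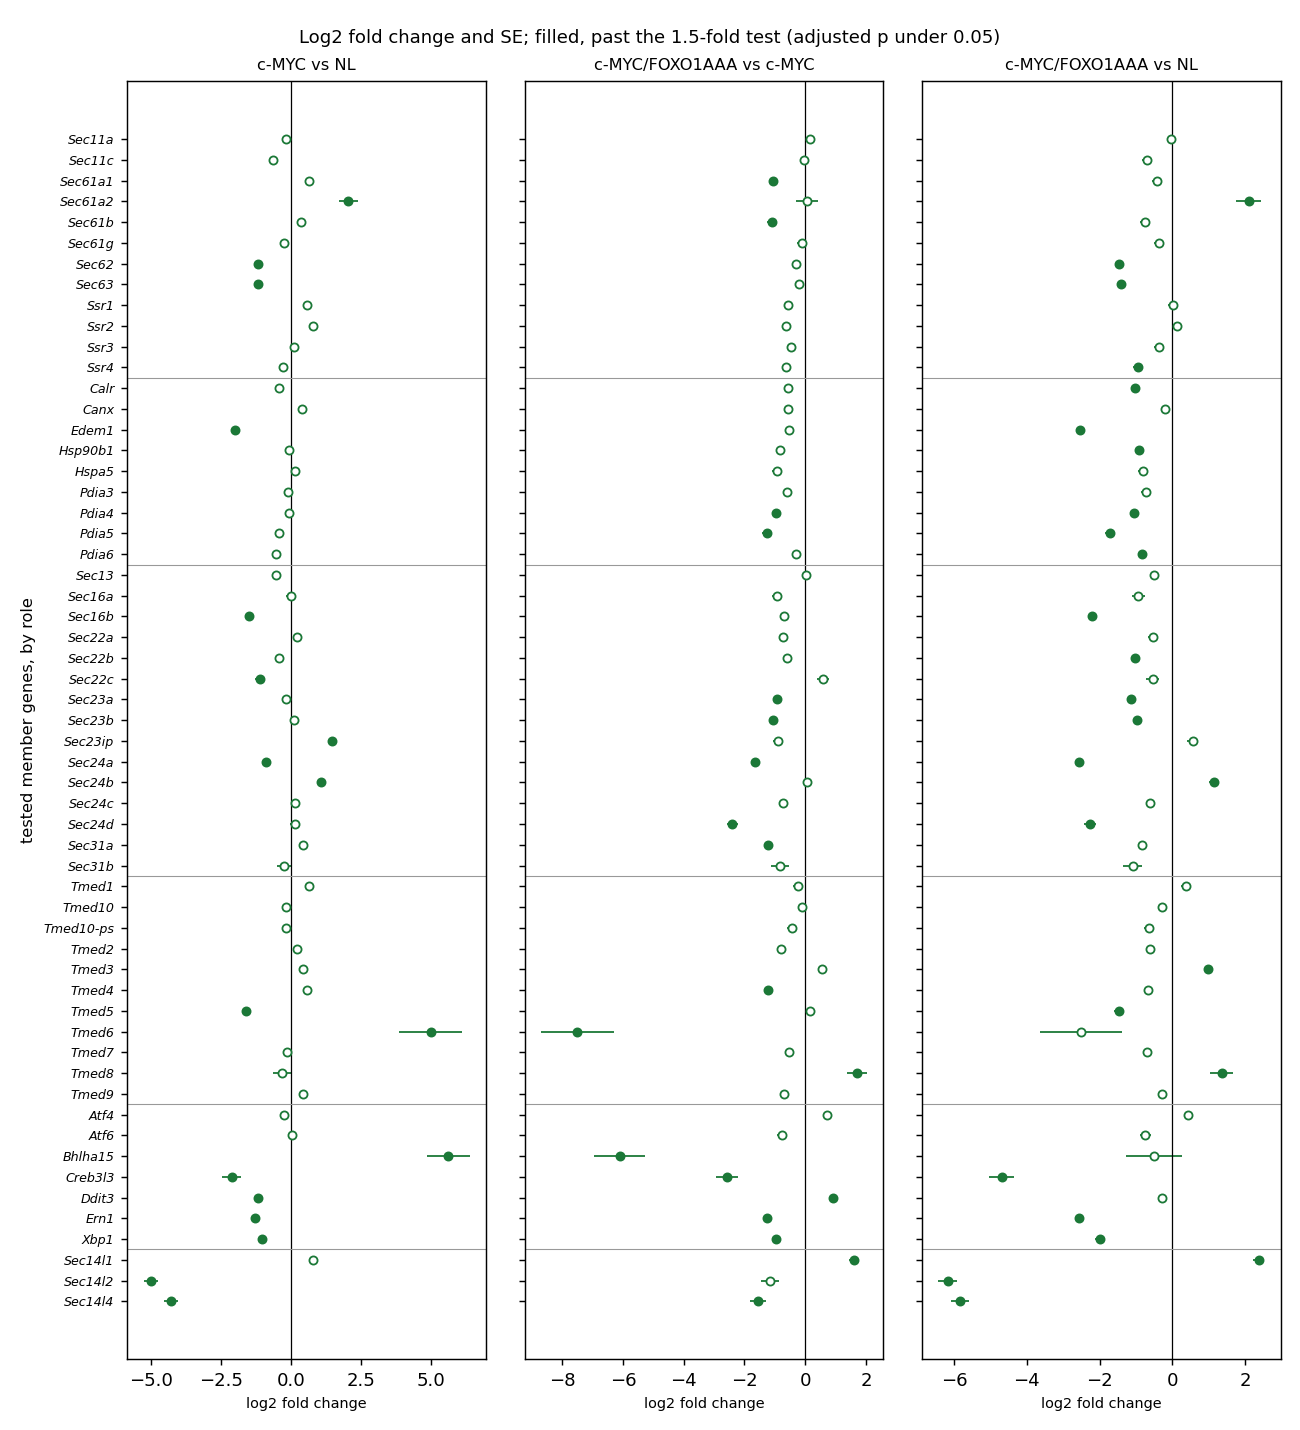
Log2 fold change (x axis) with SE of the 57 tested members (y axis, ordered by role, from translocon at the top to Sec14-like genes at the bottom) in the 3 comparisons. Filled points passed the 1.5-fold test. In c-MYC/FOXO1AAA against c-MYC the filled points lie to the left of 0 for 16 members and to the right for Sec14l1, Tmed8 and Ddit3. Tmed8 and Bhlha15 met the filter only through the group where they were high.

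The 7 stress sensors and transcription factors divided into genes that stepped down and genes with a pattern of their own. Ern1, Xbp1 and Creb3l3 were lower in c-MYC than in NL and lower again in c-MYC/FOXO1AAA, whereas Bhlha15 was high in c-MYC alone. Of them, 1 was called higher (14.3%) and 4 lower (57.1%) in c-MYC against NL, where 24.5% and 23.6% of all genes were. Between c-MYC/FOXO1AAA and c-MYC, 1 was higher (14.3%) and 4 lower (57.1%), against 15.9% and 12.7%. These counts hold Bhlha15, which met the filter only through c-MYC.

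Ern1, the IRE1α sensor, stood at 14.3, 13.7, 15.99 and 13.7 FPKM in NL, 5.45, 6.52 and 5.6 in c-MYC and 2.46, 2.57 and 2.32 in c-MYC/FOXO1AAA, and the 3 groups did not overlap. It fell in c-MYC against NL (−1.3 ± 0.12, adjusted p = 0.000175) and in c-MYC/FOXO1AAA against c-MYC (−1.25 ± 0.12, adjusted p = 0.000818).
Xbp1, whose mRNA IRE1α cuts, stood at 192, 148, 205 and 179 FPKM in NL, 93.6, 87.6 and 80.8 in c-MYC and 49.8, 43.3 and 42.4 in c-MYC/FOXO1AAA. It took the same order without overlap, with −1.04 ± 0.12, adjusted p = 0.00422 for the first comparison and −0.95 ± 0.13, adjusted p = 0.0309 for the second. The first call was lost under quantile normalization (−0.54, adjusted p = 0.92) and with the same FPKM total in every library (−0.12). The second call was lost without c-MYC 1, c-MYC 2, c-MYC/FOXO1AAA 2 or c-MYC/FOXO1AAA 3 (adjusted p up to 0.0962 in these), with the same FPKM total in every library (adjusted p = 0.222) and under quantile normalization (adjusted p = 0.156).
Between c-MYC/FOXO1AAA and NL the log2 fold changes were −2.56 ± 0.12, adjusted p = 5.7e-08 for Ern1 and −2.0 ± 0.12, adjusted p = 8.87e-07 for Xbp1.

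Creb3l3, which codes for CREBH, a membrane-bound factor of the hepatocyte ER that acts on lipid and acute phase genes, had 218, 211, 186 and 195 FPKM in NL, 38.3, 42.6 and 62.1 in c-MYC and 4.12, 8.06 and 14.6 in c-MYC/FOXO1AAA. Each c-MYC library was below every NL library, and each c-MYC/FOXO1AAA library below every c-MYC library (−2.12 ± 0.34, adjusted p = 0.00181 and −2.57 ± 0.37, adjusted p = 0.00093). Its log2 fold change in c-MYC/FOXO1AAA against NL, −4.69 ± 0.34, adjusted p = 1.15e-06, stood beside the fall of the hepatocyte marker sum, and the part of hepatocyte content in it was not tested.

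Bhlha15, or MIST1, a factor known for building the secretory apparatus of exocrine and plasma cells, had 0.941, 0.0643, 0.562 and 0.257 FPKM in NL, 13.1, 16.7 and 15.3 in c-MYC and 0.162, 0.158 and 0.399 in c-MYC/FOXO1AAA. In reads this was 1 to 35 in NL, 836 to 1100 in c-MYC and 11 to 25 in c-MYC/FOXO1AAA. It is counted as higher in c-MYC against NL and as lower in c-MYC/FOXO1AAA against c-MYC. Because it met the filter only through c-MYC, no test is given for it. The ratio of group means was 33-fold for c-MYC over NL and 62.8-fold for c-MYC over c-MYC/FOXO1AAA. Its level as a percent of the c-MYC mean was 6.25 in NL 1, 0.427 in NL 2, 3.73 in NL 3 and 1.71 in NL 4, the order described above. Without NL 1 the NL mean was 0.294 FPKM and not 0.456. Of the cell types known for this gene, the 4 plasma and B cell markers used here, of 7 listed (the other 3 were not analyzed here), summed to 2.38–3.53 FPKM in c-MYC, to 1.59–3.26 in NL and to 8.33–12.6 in c-MYC/FOXO1AAA, with Mzb1 at 0.492–1.13 in c-MYC against 0.131–0.248 in NL. The only 2 of 10 pancreatic acinar markers analyzed here, Cela1 and Cela2a, summed to 14.5–15.8 FPKM in c-MYC against 146–210 in NL. Cela1 made up nearly all of this sum, at 143–207 FPKM in NL against 1.99–3.94 for Cela2a. The sum thus follows a gene that was high in normal liver and does not measure acinar content. The plasma and B cell sums of c-MYC and NL overlapped, and the acinar sums of c-MYC lay below those of NL.

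Ddit3, or CHOP, a target of ATF4 on the PERK arm, stood at 12.7, 10.6, 11.4 and 12.5 FPKM in NL, 5.52, 5.2 and 4.72 in c-MYC and 9.94, 9.57 and 9.59 in c-MYC/FOXO1AAA: it fell in c-MYC against NL (−1.2 ± 0.11, adjusted p = 0.000305) and rose in c-MYC/FOXO1AAA against c-MYC (0.92 ± 0.12, adjusted p = 0.0293). The rise was lost without c-MYC 3 or without any 1 of the c-MYC/FOXO1AAA libraries (adjusted p from 0.052 to 0.0975) and on whole reads with voom (adjusted p = 0.0907). Atf4 was at 73.6, 68.02, 73.3 and 71.6 FPKM in NL, 51.7, 56.2 and 73.7 in c-MYC and 97.97, 97.6 and 96.05 in c-MYC/FOXO1AAA, so each c-MYC/FOXO1AAA library was above every c-MYC library, yet it did not pass (0.7 ± 0.12, adjusted p = 0.455). Without c-MYC 3 it did, at 0.85 (adjusted p = 0.0409), and under quantile normalization as well, at 1.04 (adjusted p = 0.0086). Atf6 had 9.07, 9.62, 7.35 and 8.12 FPKM in NL, 7.39, 10.6 and 8.3 in c-MYC and 5.39, 5.24 and 4.63 in c-MYC/FOXO1AAA. It passed in no comparison (−0.77 ± 0.16, adjusted p = 0.35 for the tumors against each other).

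**Figure D2:**
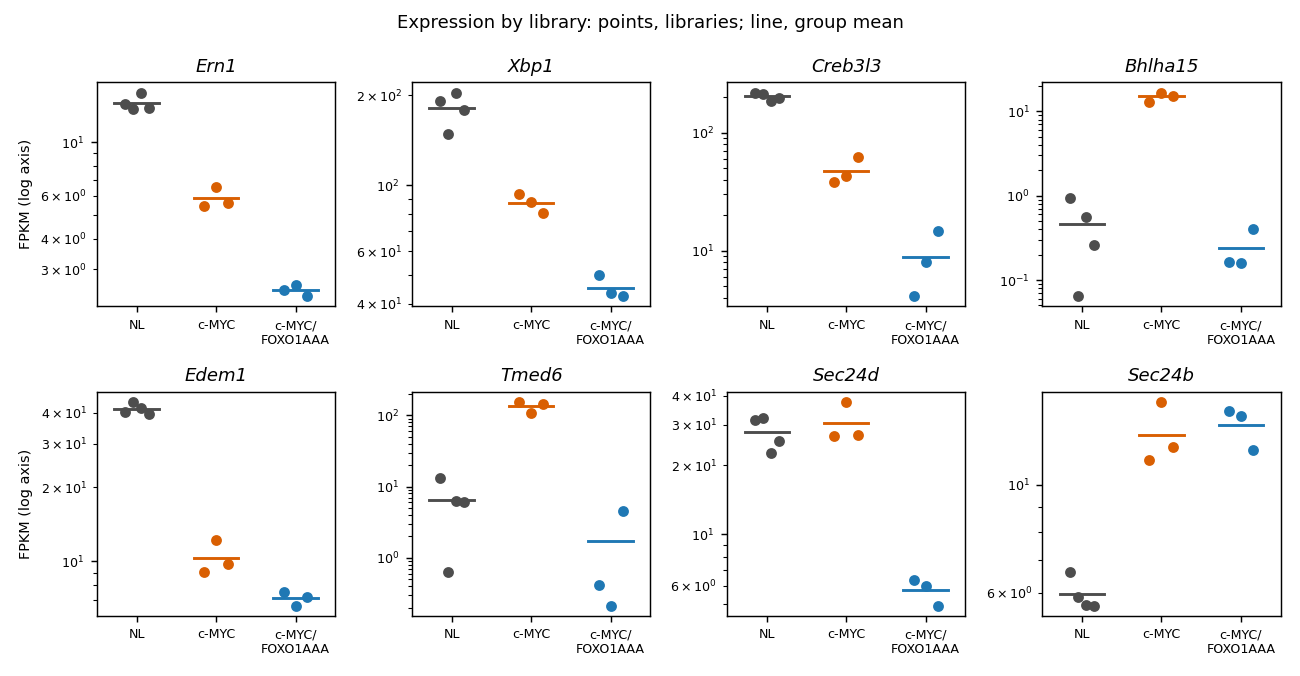
FPKM by library (log y axis) of 8 members in NL, c-MYC and c-MYC/FOXO1AAA. Points are libraries and lines group means. Ern1, Xbp1 and Creb3l3 step down in both tumor groups, Bhlha15 and Tmed6 are high in c-MYC alone, and Sec24d is low in c-MYC/FOXO1AAA alone.

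Folding genes mostly did not pass between c-MYC and NL, and their c-MYC/FOXO1AAA levels lay below those of c-MYC. All 9 tested folding members were lower in each c-MYC/FOXO1AAA library than in every c-MYC library, where 30.7% of all genes were, and their median log2 fold change was −0.59, negative under all 4 scalings tried. Only Pdia4 and Pdia5 passed the 1.5-fold test (22.2% lower, against 12.7% of all genes). Against NL, 6 of the 9 were called lower in c-MYC/FOXO1AAA (66.7%, against 26.6% of all genes). The folding median against NL turned positive, however, with the same FPKM total and under quantile normalization. Edem1 alone was called in c-MYC against NL (11.1% lower, against 23.6% of all genes).

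Hspa5 codes for BiP, the main Hsp70 of the ER and the usual readout of ER stress. It stood at 353, 379.9, 377 and 332 FPKM in NL, 384, 451 and 355 in c-MYC and 235, 166 and 226 in c-MYC/FOXO1AAA, with no overlap between c-MYC/FOXO1AAA and either other group.
The difference from c-MYC was −0.93 ± 0.15, adjusted p = 0.0621, short of the threshold. It passed without c-MYC/FOXO1AAA 1 (adjusted p = 0.0381), without c-MYC/FOXO1AAA 3 (adjusted p = 0.0471) and on whole reads with voom (adjusted p = 0.049). Between c-MYC and NL it was 0.13 ± 0.14, adjusted p = 1.
Hsp90b1, the ER Hsp90 (GRP94), was at 223, 218, 225 and 213 FPKM in NL, 188, 255 and 189 in c-MYC and 116, 104 and 135 in c-MYC/FOXO1AAA. It passed against NL in c-MYC/FOXO1AAA (−0.9 ± 0.13, adjusted p = 0.0271). That call was lost without NL 3, c-MYC/FOXO1AAA 1 or c-MYC/FOXO1AAA 2 (adjusted p from 0.0529 to 0.114) and with a replicate block (adjusted p = 0.0631).

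The lectin chaperones hold new glycoproteins until they fold. Calr was at 444, 416, 498 and 420.4 FPKM in NL, 332, 349 and 294 in c-MYC and 228, 198 and 227 in c-MYC/FOXO1AAA. It fell in c-MYC/FOXO1AAA against NL (−1.03 ± 0.10, adjusted p = 0.00171), with a log2 fold change of 0.07 with the same FPKM total and 0.08 under quantile normalization. Its membrane-bound partner Canx was at 110.5, 106, 102 and 101 FPKM in NL, 125, 161 and 122 in c-MYC and 96.9, 83.8 and 91.1 in c-MYC/FOXO1AAA. It was called in no comparison and was −0.58 ± 0.12, adjusted p = 1 between the tumors. These 4 genes and Pdia6 carry the ER stress response element printed above. In c-MYC/FOXO1AAA against c-MYC their log2 fold changes were −0.93, −0.83, −0.58, −0.58 and −0.29, and none was called.

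Among the disulfide isomerases, Pdia5 had 169, 175, 188 and 163 FPKM in NL, 129.9, 135 and 116 in c-MYC and 44.6, 49.2 and 68.2 in c-MYC/FOXO1AAA. Between the tumors it fell (−1.26 ± 0.15, adjusted p = 0.00244). Pdia4 had 96.2, 90.6, 90.6 and 88.3 FPKM in NL, 84.99, 102 and 72.9 in c-MYC and 49.5, 40.8 and 43.5 in c-MYC/FOXO1AAA. It passed more narrowly (−0.95 ± 0.13, adjusted p = 0.0297), with the call lost without c-MYC 1, c-MYC 2, c-MYC/FOXO1AAA 2 or c-MYC/FOXO1AAA 3 (adjusted p up to 0.105), with the same FPKM total and under quantile normalization. Pdia3 and Pdia6 were not called between the tumors (log2 fold changes −0.59 and −0.29). Against NL, Pdia6 was called in c-MYC/FOXO1AAA (−0.84 ± 0.11, adjusted p = 0.0395, lost without NL 1, NL 2, NL 3, c-MYC/FOXO1AAA 1 or c-MYC/FOXO1AAA 2, adjusted p from 0.0565 to 0.122) and Pdia3 was not (−0.72 ± 0.14, adjusted p = 0.282). Pdia2 did not pass the filter. It stood at 0.126, 0.0713, 0.0713 and 0.0713 FPKM in NL, 0.334, 0.103 and 0.17 in c-MYC and 1.24, 0.998 and 1.36 in c-MYC/FOXO1AAA, and each NL library held 3 reads or fewer. Set against a floor of 3 reads per library, its c-MYC/FOXO1AAA level was at least 5.61-fold higher than in NL.

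Edem1 trims mannose from misfolded glycoproteins and so sends them to degradation. It had 40.1, 44.2, 41.96 and 39.5 FPKM in NL, 9.06, 12.2 and 9.73 in c-MYC and 7.55, 6.63 and 7.17 in c-MYC/FOXO1AAA, the largest fall of a folding member in c-MYC against NL (−2.01 ± 0.11, adjusted p = 9.32e-07). Between the tumors it did not pass the 1.5-fold test (−0.53 ± 0.12, adjusted p = 1). With no fold-change threshold it was called lower there (adjusted p = 0.00375).

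Among genes of the translocon, the associated TRAP complex and signal peptidase, most members were not called. Of 12 members, 1 was called higher (8.33%) and 2 lower (16.7%) in c-MYC against NL, where 24.5% and 23.6% of all genes were. Between c-MYC/FOXO1AAA and c-MYC 2 were lower (16.7%, near the 12.7% of all genes) and none higher (against 15.9%).

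Sec62 and Sec63 help precursors through the channel. Sec62 was at 56.3, 54.7, 50.8 and 58.3 FPKM in NL, 22.4, 27.2 and 23.6 in c-MYC and 19.1, 19.98 and 20.6 in c-MYC/FOXO1AAA. Sec63 was at 32.3, 30.2, 30.8 and 33.03 FPKM in NL, 13.5, 16.5 and 11.6 in c-MYC and 11.3, 11.9 and 12.8 in c-MYC/FOXO1AAA. Both were lower in every tumor library than in every NL library, with log2 fold changes of −1.18 ± 0.09, adjusted p = 0.000156 and −1.2 ± 0.12, adjusted p = 0.00059 in c-MYC. Neither passed the 1.5-fold test between the tumors (−0.29 and −0.2). With no fold-change threshold Sec62 was called lower there (adjusted p = 0.0314) and Sec63 was not. Sec61a1, the pore-forming subunit of the channel, stood at 392, 396, 425 and 389 FPKM in NL, 565, 756 and 566 in c-MYC and 328, 304 and 261 in c-MYC/FOXO1AAA. Sec61b, a small subunit, was at 255, 256, 321 and 245 FPKM in NL, 380, 280.4 and 368 in c-MYC and 155, 145 and 179 in c-MYC/FOXO1AAA. Each was lower in all c-MYC/FOXO1AAA libraries than in any c-MYC library (−1.07 ± 0.13, adjusted p = 0.0089 and −1.1 ± 0.15, adjusted p = 0.0128). The Sec61b call was lost without c-MYC 1 (adjusted p = 0.05) or without c-MYC/FOXO1AAA 2 (adjusted p = 0.0526). Under quantile normalization neither passed (adjusted p = 0.23 and 0.155), and with the same FPKM total Sec61a1 did not (adjusted p = 0.0925). Sec61a2, the second pore gene, went the other way from NL. It had 5.19, 4.23, 2.32 and 1.78 FPKM in NL, 15.3, 13.1 and 10.3 in c-MYC and 14.8, 15.2 and 10.3 in c-MYC/FOXO1AAA. It rose in c-MYC (2.04 ± 0.34, adjusted p = 0.00232) and in c-MYC/FOXO1AAA (2.1 ± 0.34, adjusted p = 0.00144).

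The TRAP subunits Ssr1, Ssr2 and Ssr3 passed in no comparison, with log2 fold changes between the tumors of −0.56, −0.63 and −0.46. Ssr4 passed only in c-MYC/FOXO1AAA against NL (−0.93 ± 0.14, adjusted p = 0.0264), a call lost without NL 3, c-MYC/FOXO1AAA 2 or c-MYC/FOXO1AAA 3 (adjusted p from 0.0597 to 0.0688). Sec61g and the signal peptidase subunits Sec11a and Sec11c were called nowhere.

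Of 15 members of the COPII coat group, 5 were called lower (33.3%) and none higher in c-MYC/FOXO1AAA against c-MYC. Of all genes, 12.7% were lower and 15.9% higher there. The group's median was −0.84, or −0.87 relative to all genes. A linear scaling moves all genes alike and cannot change the relative value. Under quantile normalization it was −0.86. Between c-MYC and NL, 2 were higher (13.3%, against 24.5%) and 3 lower (20%, near the 23.6% of all genes).

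Sec24 proteins select cargo for the vesicle, and the 4 paralogs moved apart. Sec24d stood at 31.5, 32.1, 22.6 and 25.3 FPKM in NL, 26.7, 37.6 and 27.1 in c-MYC and 6.32, 5.99 and 4.91 in c-MYC/FOXO1AAA. Sec24a stood at 26.5, 31.1, 26.4 and 27.7 FPKM in NL, 13.5, 16.02 and 14.8 in c-MYC and 4.79, 4.56 and 4.8 in c-MYC/FOXO1AAA. Sec24d did not differ detectably between c-MYC and NL (0.12 ± 0.17, adjusted p = 1) and fell in c-MYC/FOXO1AAA (−2.4 ± 0.18, adjusted p = 9.64e-06). Sec24a fell in both steps (−0.92 ± 0.10, adjusted p = 0.00892 and −1.64 ± 0.11, adjusted p = 1.1e-05). With the same FPKM total in every library its change in c-MYC against NL was 0.01 and was not called. Sec24b had 6.63, 5.88, 5.68 and 5.65 FPKM in NL, 11.2, 14.8 and 11.96 in c-MYC and 14.1, 13.8 and 11.8 in c-MYC/FOXO1AAA: it rose in c-MYC against NL (1.08 ± 0.13, adjusted p = 0.00383) and was 0.07 ± 0.14, adjusted p = 1 between the tumors. Sec24c passed in no comparison (−0.72 ± 0.13, adjusted p = 0.388 between the tumors).

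The inner coat partner Sec23a (−0.92 ± 0.11, adjusted p = 0.0212) and its paralog Sec23b (−1.05 ± 0.12, adjusted p = 0.00775) both fell in c-MYC/FOXO1AAA against c-MYC, and so did the outer coat gene Sec31a. The call of Sec23a was lost without c-MYC 2 (adjusted p = 0.0747) or c-MYC/FOXO1AAA 1 (adjusted p = 0.0685), and with the same FPKM total neither Sec23 gene passed (adjusted p = 0.261 and 0.0719). Sec31a was at 55.4, 47.6, 42.3 and 45.5 FPKM in NL, 61.7, 75.1 and 54.7 in c-MYC and 26.1, 29.4 and 25.5 in c-MYC/FOXO1AAA (−1.23 ± 0.14, adjusted p = 0.00202). Sec13, the other outer coat gene, was at 59.4, 57.6, 60.9 and 53.9 FPKM in NL, 38.3, 42.5 and 38.6 in c-MYC and 42.1, 40.8 and 39.1 in c-MYC/FOXO1AAA. It was called in no comparison. Sec16b, which with Sec16a organizes ER exit sites, was at 25.6, 28.05, 26.5 and 27.2 FPKM in NL, 8.04, 10.9 and 9.3 in c-MYC and 6.49, 5.11 and 5.91 in c-MYC/FOXO1AAA. It fell in c-MYC against NL (−1.52 ± 0.12, adjusted p = 4.09e-05), whereas Sec16a did not pass in any comparison (−0.93 ± 0.18, adjusted p = 0.136 between the tumors). Sec23ip, which binds Sec23 at exit sites, was the COPII gene highest over NL in c-MYC, with 6.44, 4.88, 5.94 and 5.91 FPKM in NL, 14.8, 18.3 and 14.7 in c-MYC and 9.46, 8.54 and 7.54 in c-MYC/FOXO1AAA (1.46 ± 0.14, adjusted p = 0.000136). Between the tumors it was −0.9 ± 0.15, adjusted p = 0.0871, which passed with equal medians, under quantile normalization and on whole reads with voom (adjusted p from 0.0177 to 0.0416). Sec22c, also placed in this group, had 7.98, 7.83, 5.3 and 6.81 FPKM in NL, 2.9, 3.84 and 2.82 in c-MYC and 4.61, 5.12 and 4.53 in c-MYC/FOXO1AAA. It fell in c-MYC against NL (−1.13 ± 0.18, adjusted p = 0.0133), a call lost without c-MYC 3 (adjusted p = 0.0507). Sec22b passed in c-MYC/FOXO1AAA against NL (−1.02 ± 0.09, adjusted p = 0.000914).

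The p24 proteins (Tmed genes) cycle between ER and Golgi as cargo adaptors. Of 11 members, 1 was called in each direction in c-MYC against NL (9.09% each), where 24.5% of all genes were higher and 23.6% lower. Between c-MYC/FOXO1AAA and c-MYC, 1 was higher (9.09%) and 2 lower (18.2%), against 15.9% and 12.7%. Tmed6 had the largest change of any member between the tumors, and the other members called were Tmed5, Tmed4, Tmed8 and Tmed3.

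Tmed6 stood at 13.02, 0.623, 6.25 and 6.02 FPKM in NL, 154, 106 and 144 in c-MYC and 0.416, 0.213 and 4.53 in c-MYC/FOXO1AAA. All c-MYC libraries were above all others, and both NL and c-MYC/FOXO1AAA were spread widely. It rose in c-MYC against NL (4.99 ± 1.13, adjusted p = 0.00456) and fell in c-MYC/FOXO1AAA (−7.5 ± 1.20, adjusted p = 0.00074), the ratio of means being 20.8-fold and 78.5-fold. As a percent of the c-MYC mean it was 9.65 in NL 1, 0.462 in NL 2, 4.63 in NL 3, 4.46 in NL 4 and 3.36 in c-MYC/FOXO1AAA 3, against 0.308 and 0.158 in the other two c-MYC/FOXO1AAA libraries. The NL mean was 6.48 FPKM with NL 1 and 4.3 without, and the c-MYC/FOXO1AAA mean 1.72 FPKM with its library 3 and 0.314 without. Between c-MYC/FOXO1AAA and NL it did not pass (−2.5 ± 1.13, adjusted p = 0.114), and it did without NL 2 (−3.42, adjusted p = 0.0152) or without c-MYC/FOXO1AAA 3 (−3.81, adjusted p = 0.0114).

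Tmed5 was at 40.2, 43.6, 35.5 and 36.7 FPKM in NL, 11.3, 13.3 and 13.7 in c-MYC and 13.7, 12.2 and 16.4 in c-MYC/FOXO1AAA. Against NL it fell in c-MYC (−1.61 ± 0.13, adjusted p = 2.42e-05) with no detectable difference between the tumors (0.14). Tmed4 was at 50.5, 41.5, 46.6 and 48.6 FPKM in NL, 68.8, 68.8 and 67.9 in c-MYC and 30.3, 27.2 and 30.99 in c-MYC/FOXO1AAA. Between the tumors it fell (−1.22 ± 0.10, adjusted p = 0.000238). Tmed3 was at 17.2, 16.8, 18.3 and 13.8 FPKM in NL, 21.8, 23.7 and 20.997 in c-MYC and 32.7, 28.6 and 37.4 in c-MYC/FOXO1AAA. It was called only in c-MYC/FOXO1AAA against NL (0.99 ± 0.12, adjusted p = 0.00787). Tmed8 was low throughout, at 0.505, 0.589, 0.749 and 0.332 FPKM in NL, 0.354, 0.41 and 0.486 in c-MYC and 1.42, 1.2 and 1.43 in c-MYC/FOXO1AAA. It met the filter only through c-MYC/FOXO1AAA, where it is counted as higher, so no test is given for it. Between the tumors the count of Tmed8 as higher was lost with a pseudocount of 1 FPKM and under quantile normalization. Against NL it was lost without NL 4, c-MYC/FOXO1AAA 1 or c-MYC/FOXO1AAA 3. Tmed10, Tmed2, Tmed9, Tmed7 and Tmed1 were called in no comparison, with log2 fold changes between the tumors of −0.12, −0.81, −0.71, −0.52 and −0.25. Tmed10-ps was not called either (−0.45). With equal medians, Tmed2 and Tmed9 passed as lower between the tumors (adjusted p = 0.024 and 0.0375).

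The Sec14-like genes that the symbol pattern takes changed more than most of the machinery. Sec14l2, a lipid-binding protein abundant in liver, was at 2292, 2437, 2159.8 and 2334 FPKM in NL, 55.7, 60.9 and 106 in c-MYC and 20.3, 39.996 and 39.1 in c-MYC/FOXO1AAA. Sec14l4 was at 364, 369, 316 and 373 FPKM in NL, 14.4, 27.96 and 14.9 in c-MYC and 4.28, 7.72 and 7.23 in c-MYC/FOXO1AAA. Both fell in c-MYC against NL (−5.02 ± 0.26, adjusted p = 1.42e-07 and −4.29 ± 0.25, adjusted p = 3.91e-07), beside the fall of the hepatocyte markers, whose part in it was not tested. Sec14l1 had 3.51, 3.06, 4.58 and 3.78 FPKM in NL, 5.98, 6.67 and 6.22 in c-MYC and 20.1, 21.1 and 16.6 in c-MYC/FOXO1AAA. It rose in c-MYC/FOXO1AAA against c-MYC (1.61 ± 0.16, adjusted p = 0.000261). Sec14l5 did not pass the filter and was at most 0.733 FPKM. Without these 4 genes and the pseudogene, 53 tested members remained. Of these, 5 were called higher and 11 lower in c-MYC against NL (9.43% and 20.8%). In the second comparison 2 and 15 were called (3.77% and 28.3%), and in the third 4 and 19 (7.55% and 35.8%). Without Bhlha15 and Tmed8 the counts were 4 and 13 (7.27% and 23.6%), 2 and 15 (3.64% and 27.3%), and 4 and 21 (7.27% and 38.2%). All tested genes stood at 24.5% and 23.6%, 15.9% and 12.7%, and 31.2% and 26.6%.

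Other genes of the same pathway were taken from 6 lists of 109 genes, of which 106 were tested. In c-MYC against NL, 12 were called higher (11.3%, against 24.5% of all genes) and 26 lower (24.5%, against 23.6%), so the share called lower was near the background. In c-MYC/FOXO1AAA against c-MYC the counts were 10 and 22 (9.43% and 20.8%, against 15.9% and 12.7%), and against NL 11 and 42 (10.4% and 39.6%, against 31.2% and 26.6%). Counts of these lists are given under the deposited scaling.

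Of 24 further ER chaperones and oxidoreductases, none was higher (against 24.5% of all genes) and 9 were lower (37.5%, against 23.6%) in c-MYC against NL. Between the tumors 3 were higher (12.5%, against 15.9%) and 5 lower (20.8%, against 12.7%). Uggt2, a paralog of the glycoprotein folding sensor Uggt1, was at 4.38, 3.83, 6.31 and 4.51 FPKM in NL, 1.16, 1.05 and 1.07 in c-MYC and 36.4, 25.4 and 22.8 in c-MYC/FOXO1AAA: it fell in c-MYC (−2.1 ± 0.20, adjusted p = 4.06e-05) and rose in c-MYC/FOXO1AAA against c-MYC (4.66 ± 0.22, adjusted p = 1.23e-07). The oxidase Ero1lb had 20.5, 24.7, 21.2 and 19.2 FPKM in NL, 2.38, 2.74 and 2.72 in c-MYC and 19.5, 15.1 and 12.2 in c-MYC/FOXO1AAA. It likewise fell in c-MYC (−3.03 ± 0.16, adjusted p = 1.81e-07) and rose between the tumors (2.56 ± 0.17, adjusted p = 3.21e-06). In the other direction, Dnajc3, a BiP cochaperone, was at 49.999, 51.5, 56.8 and 49.03 FPKM in NL, 21.8, 32.5 and 29.4 in c-MYC and 13.2, 11.03 and 11.2 in c-MYC/FOXO1AAA (−2.14 ± 0.14, adjusted p = 1.14e-06 for c-MYC/FOXO1AAA against NL).

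In the PERK-ATF4 list, 18 of 19 genes were tested. In c-MYC against NL, 7 were higher (38.9%, against 24.5% of all genes) and 2 lower (11.1%, against 23.6%). Between the tumors 5 were higher (27.8%, against 15.9%) and 1 lower (5.56%, against 12.7%). The lower one was Eif2ak3, which codes for PERK itself and is named after its values were seen. It had 4.08, 3.58, 3.27 and 4.03 FPKM in NL, 7.16, 9.71 and 5.78 in c-MYC and 3.16, 2.98 and 2.96 in c-MYC/FOXO1AAA: it fell in c-MYC/FOXO1AAA against c-MYC (−1.28 ± 0.19, adjusted p = 0.00897). Between c-MYC and NL it was 0.99 ± 0.18, adjusted p = 0.0491, a call lost without NL 2, NL 3, NL 4, c-MYC 1, c-MYC 2 or any 1 of the c-MYC/FOXO1AAA libraries (adjusted p from 0.0565 to 0.214), with a replicate block (adjusted p = 0.0563), with equal medians (adjusted p = 0.0589) and under quantile normalization (adjusted p = 0.101). In c-MYC against NL the largest changes were in enzymes of serine synthesis. The first was Psat1, with 13.6, 0.978, 7.44 and 3.66 FPKM in NL, 182, 209 and 217 in c-MYC and 89.1, 97.7 and 93.4 in c-MYC/FOXO1AAA (5.53 ± 0.69, adjusted p = 7.67e-05). The other was Phgdh, with 32.5, 2.58, 17.4 and 7.71 FPKM in NL, 481, 424 and 497 in c-MYC and 142, 166 and 166 in c-MYC/FOXO1AAA (5.5 ± 0.66, adjusted p = 6.3e-05). In both, NL 1 was highest and NL 2 lowest, and the NL means were 6.43 and 15.1 FPKM with NL 1 and 4.03 and 9.22 without. In c-MYC/FOXO1AAA against c-MYC the largest was in Nupr1, a stress-induced chromatin protein, with 0.907, 0.911, 0.884 and 1.08 FPKM in NL, 0.734, 0.527 and 0.537 in c-MYC and 23.1, 26.6 and 22.2 in c-MYC/FOXO1AAA. It met the filter only through c-MYC/FOXO1AAA, where it is 1 of the 5 genes counted as higher, so its difference is given as levels alone. The lipoprotein receptor Vldlr followed, with 3.76, 2.25, 2.08 and 3.11 FPKM in NL, 0.304, 0.46 and 0.637 in c-MYC and 5.38, 4.02 and 4.51 in c-MYC/FOXO1AAA (3.37 ± 0.32, adjusted p = 2.7e-05). Ddit4, an inhibitor of mTORC1, had 4.4, 2.49, 4.5 and 3.12 FPKM in NL, 17.1, 13.4 and 14.3 in c-MYC and 115, 112 and 85.8 in c-MYC/FOXO1AAA. It rose in c-MYC against NL (2.08 ± 0.21, adjusted p = 6.09e-05) and again in c-MYC/FOXO1AAA against c-MYC (2.8 ± 0.22, adjusted p = 1.1e-05).

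Of 17 tested genes of ER-associated degradation, 1 was higher (5.88%, against 24.5% of all genes) and 9 lower (52.9%, against 23.6%) in c-MYC against NL. Between the tumors only 1, Derl3, was called. It was higher (5.88%, against 15.9%), and none was lower (against 12.7%). Derl3, which helps draw misfolded proteins out of the ER, was at 6.72, 7.28, 11.4 and 6.22 FPKM in NL, 24.4, 24.5 and 25.7 in c-MYC and 98.8, 180.1 and 101 in c-MYC/FOXO1AAA. It rose in both steps (1.69 ± 0.24, adjusted p = 0.00144 and 2.29 ± 0.26, adjusted p = 0.000221). Herpud1, a scaffold of the degradation complex, had 289, 259, 326 and 284 FPKM in NL, 44.4, 67.2 and 50.8 in c-MYC and 35.5, 40.004 and 26.5 in c-MYC/FOXO1AAA (−2.44 ± 0.17, adjusted p = 2.6e-06 for c-MYC against NL). The lectin Os9 had 148, 140.3, 154 and 151 FPKM in NL, 29.5, 35.02 and 25.1 in c-MYC and 24.7, 24.3 and 32.6 in c-MYC/FOXO1AAA (−2.33 ± 0.13, adjusted p = 6.98e-07). Both were low in every tumor library.

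The oligosaccharyltransferase attaches glycans to new chains. Of 11 subunits tested, 1 was higher in c-MYC against NL (9.09%, against 24.5% of all genes) and 4 were lower in c-MYC/FOXO1AAA against c-MYC (36.4%, against 12.7%). Ostc had 42.2, 41.8, 40.4 and 30.9 FPKM in NL, 75.2, 99.6 and 91.7 in c-MYC and 32.7, 32.6 and 38.8 in c-MYC/FOXO1AAA, rising in c-MYC against NL and falling between the tumors (1.2 ± 0.14, adjusted p = 0.00183 and −1.35 ± 0.15, adjusted p = 0.00111). Magt1 had 129, 127, 115 and 119 FPKM in NL, 149.6, 176 and 136 in c-MYC and 54.5, 38.9 and 59.5 in c-MYC/FOXO1AAA. It fell between the tumors (−1.61 ± 0.16, adjusted p = 0.000211). Dad1 was the other subunit called in c-MYC/FOXO1AAA against NL, with 38.96, 36.6, 44.2 and 35.4 FPKM in NL, 31.02, 31.2 and 29.8 in c-MYC and 22.8, 20.9 and 21.5 in c-MYC/FOXO1AAA (−0.83 ± 0.09, adjusted p = 0.0233), lost without NL 3 (adjusted p = 0.063) or without c-MYC/FOXO1AAA 2 (adjusted p = 0.0705) and turned to 0.27 with the same FPKM total.

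Among 15 genes of the signal recognition particle, its receptor and signal peptidase, 3 were higher (20%) and 1 lower (6.67%) in c-MYC against NL and 3 were lower (20%) in c-MYC/FOXO1AAA against c-MYC, against the backgrounds given above. Srp68 had 37.5, 30.7, 27.9 and 29.4 FPKM in NL, 70.1, 87.04 and 71.3 in c-MYC and 36.9, 43.3 and 39.4 in c-MYC/FOXO1AAA (1.28 ± 0.12, adjusted p = 0.000348 for c-MYC against NL). The receptor subunit Srprb had 11.5, 11.05, 12.8 and 11.5 FPKM in NL, 21.9, 27.8 and 26.7 in c-MYC and 18.6, 19.3 and 15.7 in c-MYC/FOXO1AAA (1.12 ± 0.12, adjusted p = 0.00138). Tram1, which contacts nascent chains beside the channel, had 466, 504, 512 and 475 FPKM in NL, 274, 340.3 and 275 in c-MYC and 140.3, 106 and 134 in c-MYC/FOXO1AAA (−1.23 ± 0.13, adjusted p = 0.00133 between the tumors). Tram2 had 4.19, 4.2, 5.82 and 3.85 FPKM in NL, 2.5, 4.03 and 3.67 in c-MYC and 1.2, 1.46 and 1.66 in c-MYC/FOXO1AAA (−1.22 ± 0.24, adjusted p = 0.0401), a call lost without any of 6 libraries, NL 1, NL 2, c-MYC 2, c-MYC 3, c-MYC/FOXO1AAA 1 or c-MYC/FOXO1AAA 2 (adjusted p from 0.0513 to 0.135), and with the same FPKM total (adjusted p = 0.124).

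Of 21 genes of the COPI coat, COPII partners and cargo receptors, none was higher (against 24.5% of all genes) and 5 were lower (23.8%, near the 23.6% of all genes) in c-MYC against NL. In c-MYC/FOXO1AAA against c-MYC, 1 was higher (4.76%, against 15.9%) and 9 lower (42.9%, against 12.7%). Sar1b, the GTPase that starts COPII assembly, was at 262, 281, 282 and 272 FPKM in NL, 55.9, 51.1 and 58.2 in c-MYC and 35.6, 36.8 and 41.1 in c-MYC/FOXO1AAA (−2.32 ± 0.09, adjusted p = 3.02e-08 for c-MYC against NL). The large-cargo receptor Mia3 was at 95.7, 102, 78.6 and 87.7 FPKM in NL, 28.5, 35.999 and 25.1 in c-MYC and 42.5, 30.97 and 31.2 in c-MYC/FOXO1AAA (−1.62 ± 0.16, adjusted p = 0.000108), a call lost with the same FPKM total in every library (−0.69, adjusted p = 0.364). Mcfd2, which with Lman1 carries coagulation factors, was at 640, 691, 658 and 614 FPKM in NL, 311, 396 and 344 in c-MYC and 98.2, 109.7 and 123 in c-MYC/FOXO1AAA (−1.67 ± 0.12, adjusted p = 2.12e-05 between the tumors). The 1 counted as higher was Kdelr3, a receptor that returns ER residents from the Golgi, at 0.597, 0.234, 0.737 and 0.163 FPKM in NL, 0.702, 0.347 and 0.315 in c-MYC and 5.43, 5.99 and 5.61 in c-MYC/FOXO1AAA. It was under 1 FPKM in every NL and c-MYC library and met the filter only through c-MYC/FOXO1AAA, so no test is given for it.

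Ratios of related genes within a library do not depend on a linear scaling of the libraries. The pairs were chosen after the values were seen and are given as a description. Absolute ratios also reflect the transcript length the authors used for each gene, so only their change across libraries is read here. The log2 ratio of Sec24b to Sec24a was −2.0, −2.41, −2.22 and −2.29 in NL, −0.27, −0.12 and −0.31 in c-MYC and 1.56, 1.6 and 1.29 in c-MYC/FOXO1AAA. That of Sec24b to Sec24d was −2.25, −2.45, −1.99 and −2.17 in NL, −1.25, −1.35 and −1.18 in c-MYC and 1.16, 1.21 and 1.26 in c-MYC/FOXO1AAA. Neither set of ratios overlapped between groups, and both changed sign, so that Sec24b had a higher FPKM than Sec24a or Sec24d only in c-MYC/FOXO1AAA. Tmed3 over Tmed4 was −1.55, −1.31, −1.35 and −1.81 in NL, −1.66, −1.54 and −1.69 in c-MYC and 0.11, 0.07 and 0.27 in c-MYC/FOXO1AAA, where the normal and c-MYC ratios overlapped. Sec23a over Sec23b moved little by comparison, with means of −2.49, −2.78 and −2.65. Outside the members, the mean log2 ratio of Uggt2 to Uggt1 was −1.53 ± 0.28 (SD, n = 4) in NL, −3.13 ± 0.36 (n = 3) in c-MYC and 2.01 ± 0.29 (n = 3) in c-MYC/FOXO1AAA. Kdelr3 to Kdelr2 was −8.03 ± 1.03, −7.71 ± 0.56 and −2.84 ± 0.12, and Derl3 to Derl2 was −4.73 ± 0.36, −1.11 ± 0.13 and 1.87 ± 0.57 in the same order.

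**Figure D3:**
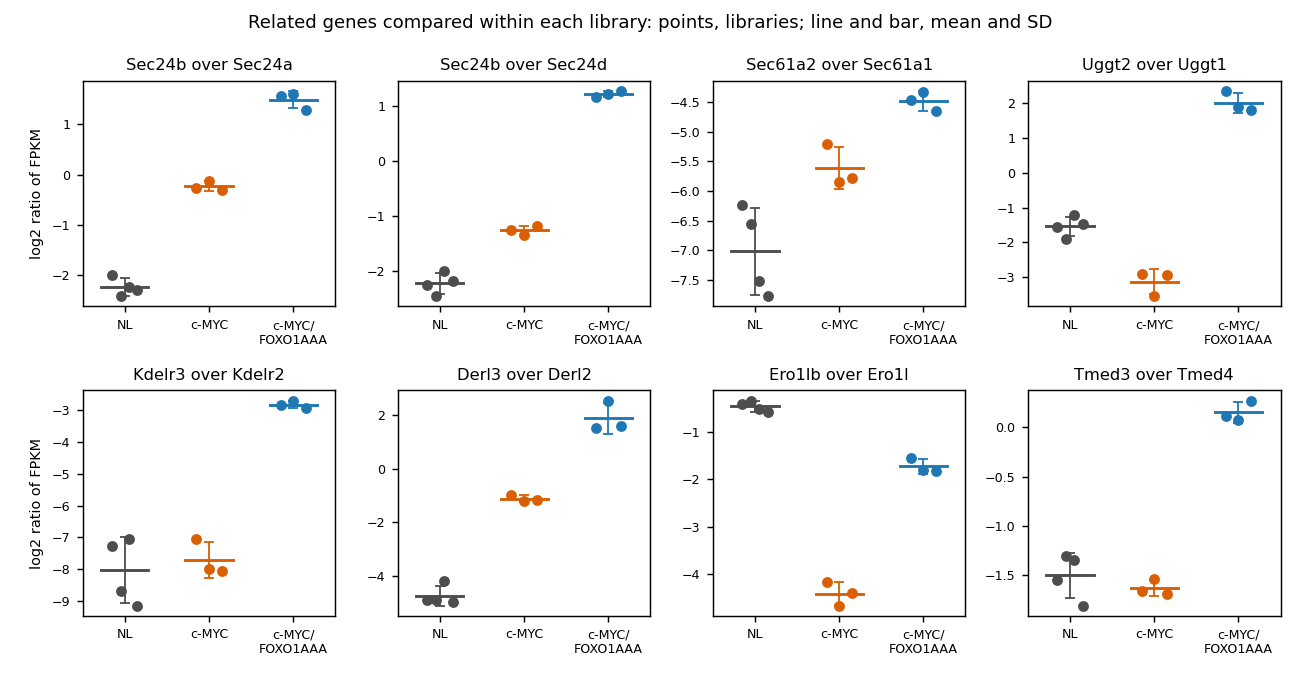
Log2 ratio of FPKM (y axis) of 8 pairs of related genes in each library of NL, c-MYC and c-MYC/FOXO1AAA, with mean and SD. Sec24b over Sec24a runs from a mean of −2.23 in NL through −0.23 in c-MYC to 1.48 in c-MYC/FOXO1AAA, while Ero1lb over Ero1l is lowest in c-MYC (−4.41).

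Counts of members depended on how the libraries were put on 1 scale, above all against NL. Under the deposited scaling, 5 members were higher and 13 lower in c-MYC against NL. With every library set to the same FPKM total these were 24 and 3, since the median of all genes moved from 0.08 to 1.01, and under quantile normalization 12 and 12. With the same total, calls of Xbp1 (−0.12), Ern1 (−0.38), Ddit3 (−0.27), Creb3l3 (−1.19, adjusted p = 0.0736), Sec24a (0.01), Sec62, Sec63, Sec16b, Tmed5 and Sec22c were lost there. For c-MYC/FOXO1AAA against c-MYC the counts were 3 and 16 as deposited, 3 and 11 with the same total, 2 and 20 with equal medians and 3 and 14 under quantile normalization. For c-MYC/FOXO1AAA against NL they were 5 and 21, 15 and 9, 4 and 27, and 6 and 17. With the same total, all genes had a median of 1.31 there and of 0.2 in c-MYC/FOXO1AAA against c-MYC. Relative to the median of all genes, the members' median was −0.25 in c-MYC against NL, −0.66 in c-MYC/FOXO1AAA against c-MYC and −0.93 in c-MYC/FOXO1AAA against NL under each linear scaling, which cannot change these relative values. Under quantile normalization they were 0.06, −0.51 and −0.51. In c-MYC/FOXO1AAA against c-MYC, 46 of 57 members lay below the median of all genes as deposited and 43 under quantile normalization. For c-MYC against NL, 34 lay below it as deposited and 28 under quantile normalization.

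**Figure D4:**
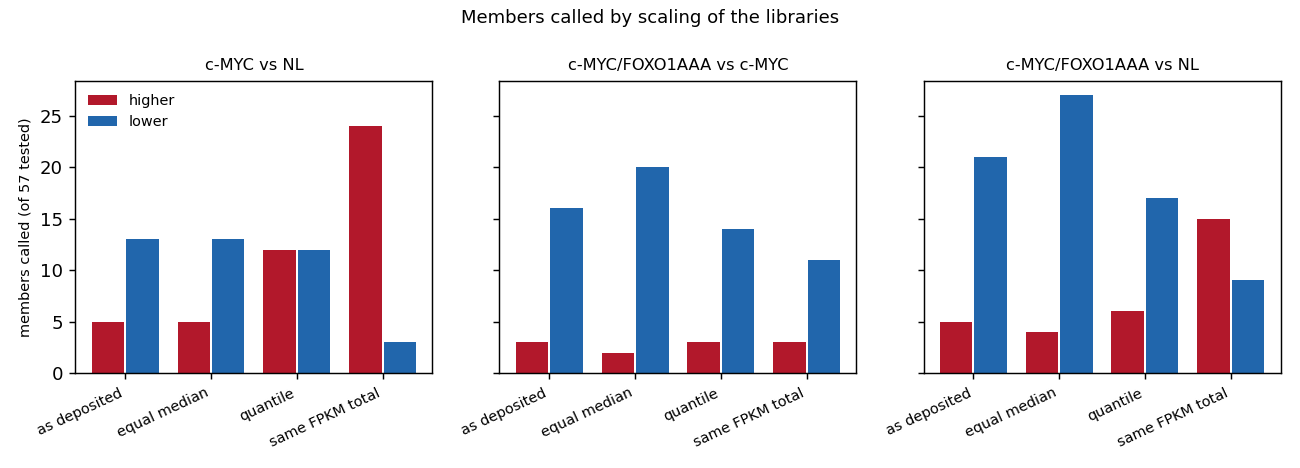
Number of members called higher and lower (y axis, of 57 tested) under 4 ways of scaling the libraries, for the 3 comparisons. The lower bars exceed the higher bars under all 4 only in c-MYC/FOXO1AAA against c-MYC.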

How the data were processed

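The authors deposited log2 FPKM for 16697 named genes in 10 RNA-Seq libraries (372 further rows of 17069 had neither symbol nor value). According to the methods, reads were counted by Ensembl gene, mapped to symbols and tested with a negative binomial model. The submitters' processing notes name FastQC 0.11.7 and GRCm38, and the aligner and counter are not given in the sources used here. Deposited log2 values hold a prior count of 2, from which whole reads were recovered for 99.88% of genes (tolerance 0.002 reads). The authors used 1 transcript length per gene, with the longest annotated transcript over 3 times as long for 11 of 59 members, so levels of different genes compare poorly.

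Groups came from sample titles. Genes at 1 FPKM or more in 3 or more of the libraries (14017) were fitted with limma 3.58.1 in R 4.3.3 (treat, 1.5-fold, trend and robust, all 10 libraries, two-sided), with Benjamini-Hochberg adjustment over all of them. The test was tried on simulated data. Alternatives were pseudocounts of 0.1 and 1, no filter, a mean of at least 5 FPKM, 3 scalings, thresholds of none and 2-fold, no trend or robust fit, only the compared groups, a replicate block, voom on whole reads and each library left out. Counts of members without the Sec14-like genes, or without Bhlha15 and Tmed8, were added after the data were seen.

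The members and lists were chosen with earlier results of these data known. Values by library are given for the members fixed by name and, per role and comparison, for up to 3 called members with the largest fold change whose groups did not overlap. From each other list up to 2 called genes are given. FPKM of marker genes of other cell types were summed per library. Of the B cell markers, 1 is not reported here and was left out of its sum.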

Additional observations from a re-analysis of the deposited data

Results flagged for a closer look

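In the 4 NL libraries, 4 of 59 members had a value farther from the rest than Dixon's 95% limit allows, and chance flags about 1 in 20 groups. Sec23b in NL 3 was at 129 FPKM, with the others at 156–159. Sec14l4 in NL 3 was at 316 FPKM against 364–373, and Sec61b in NL 3 at 321 FPKM against 245–256. Pdia2 in NL 1 was at 0.126 FPKM, where the other 3 were at 0.0713, the value of a library with no read.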

How the results depend on the processing

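Counts of members called kept within 1.5 times of those reported under a pseudocount of 0.1, no filter, a mean of 5 FPKM, equal medians, no trend or robust fit, only the compared groups, voom, a replicate block and both member subsets. For c-MYC against NL, higher calls moved from 5 to 24 with the same FPKM total, 12 under quantile normalization and 16 with no threshold, and lower calls from 13 to 3 with the same total and 7 at 2-fold. For c-MYC/FOXO1AAA against c-MYC, higher calls moved from 3 to 1 with a pseudocount of 1, 6 with no threshold and 1 at 2-fold, and lower calls from 16 to 40 with no threshold and 5 at 2-fold. For c-MYC/FOXO1AAA against NL, higher calls moved from 5 to 15 with the same total, 8 with no threshold and 2 at 2-fold, and lower calls from 21 to 9 with the same total, 43 with no threshold and 13 at 2-fold. With no threshold 39.1% and 35.3%, 28.4% and 26.4%, and 44.4% and 36.0% of all genes were called higher and lower. Leaving out each library gave 5 to 5 higher and 12 to 13 lower in the first comparison, 2 to 3 and 13 to 16 in the second and 4 to 5 and 18 to 22 in the third, and 17 of 18, 14 of 19 and 22 of 26 calls were made every time.

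Replicate numbers did not pair the libraries (correlation of same-numbered libraries' deviations from −0.04 to 0.027). With the replicate block, 5 members were higher and 13 lower in the first comparison, 3 and 15 in the second and 4 and 20 in the third.

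Of 3942 values of single genes under alternatives, 3657 kept direction and call, 80 passed anew, 146 no longer passed and 59 changed sign. Log2 fold changes that changed sign follow. With the same total, c-MYC against NL gave Atf4 0.67, Calr 0.48, Hsp90b1 0.85, Pdia4 0.84, Pdia5 0.48, Sec24a 0.01 and Tmed8 0.59. Under it c-MYC/FOXO1AAA against NL gave Atf6 0.35, Bhlha15 0.6, Calr 0.07, Canx 0.89, Dad1 0.27, Ddit3 0.82, Hsp90b1 0.19, Hspa5 0.3, Pdia4 0.06, Pdia6 0.26, Sec22b 0.07, Sec22c 0.56, Sec23b 0.14, Sec31a 0.28, Sec61a1 0.66, Sec61b 0.35, Ssr4 0.16 and Tmed4 0.43, and between the tumors it gave Sec11c 0.14, Sec61g 0.06 and Tmed10 0.05. Quantile normalization gave Atf4 0.03, Atf6 −0.01, Calr 0.39, Hsp90b1 0.61, Pdia4 0.27, Pdia5 0.09 and Tmed8 0.02 in c-MYC against NL, and Calr 0.08, Canx 0.46, Hspa5 0.27, Pdia6 0.04, Sec61a1 0.66, Sec61b 0.25 and Ssr4 0.16 in c-MYC/FOXO1AAA against NL, and Sec61g 0.16 and Tmed10 0.14 between the tumors. Equal medians gave Atf6 −0.02 in c-MYC against NL and Sec61a2 −0.03, Sec13 −0.05 and Sec24b −0.01 between the tumors. Leaving out 1 library gave a range of −0.12 (c-MYC 2; −0.04 without NL 3) to 0.15 for Atf6, −0.21 to 0.03 (c-MYC 3) for Pdia4 and −0.04 (c-MYC 2) to 0.21 for Sec24d in c-MYC against NL, −1.24 to 0.05 (NL 1) for Bhlha15 in c-MYC/FOXO1AAA against NL, and −0.1 (c-MYC 3; −0.02 without c-MYC/FOXO1AAA 1 and −0.04 without c-MYC/FOXO1AAA 2) to 0.23 for Sec61a2, −0.01 (c-MYC 1) to 0.19 for Sec24b and −0.1 to 0.06 (c-MYC/FOXO1AAA 2; 0.02 without c-MYC 2) for Sec11c between the tumors. Beyond the scalings the cause was not tested. The 1.5-fold threshold of the test leaves smaller differences uncalled, and members under a few FPKM rest on few reads.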

Other observations

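Summed stellate cell and fibroblast markers (6 of 6 in the table) were at 322–397 FPKM in c-MYC/FOXO1AAA, 13.8–42.7 in c-MYC and 79.01–100.2 in NL. Dcn made up most of the sum in NL and was lower in c-MYC (−4.18 ± 0.41, adjusted p = 1.79e-05), whereas Col1a1 had 3.07, 1.72, 1.76 and 1.64 FPKM in NL, 10.3, 3.16 and 11.4 in c-MYC and 10.98, 40.7 and 23.5 in c-MYC/FOXO1AAA. Of the 6, 3 were called higher in c-MYC/FOXO1AAA against c-MYC (50%, against 15.9% of all genes), led by Dcn, a collagen-binding proteoglycan, with 70.5, 61.98, 63.7 and 83.1 FPKM in NL, 4.0, 1.76 and 7.99 in c-MYC and 312, 178 and 218 in c-MYC/FOXO1AAA (5.9 ± 0.44, adjusted p = 3.89e-06). Col3a1 had 6.04, 5.93, 5.58 and 6.25 FPKM in NL, 10.2, 3.64 and 10.4 in c-MYC and 50.96, 59.4 and 67.3 in c-MYC/FOXO1AAA. Pdgfrb, a receptor of mesenchymal cells, had 2.0, 2.14, 2.07 and 2.14 FPKM in NL, 2.85, 1.51 and 3.04 in c-MYC and 14.3, 14.2 and 13.4 in c-MYC/FOXO1AAA. Of the plasma and B cell genes, Cd79a had 0.889, 0.0813, 0.292 and 0.234 FPKM in NL, 0.231, 0.227 and 0.193 in c-MYC and 11.9, 9.66 and 6.98 in c-MYC/FOXO1AAA and met the filter only through c-MYC/FOXO1AAA, while Mzb1 did not pass the filter. Jchain had 1.38, 1.84, 0.894 and 1.36 FPKM in NL, 1.92, 0.657 and 1.26 in c-MYC and 0.143, 0.349 and 0.524 in c-MYC/FOXO1AAA. Cd79b had 0.857, 1.08, 0.271 and 1.03 FPKM in NL, 0.646, 0.366 and 0.874 in c-MYC and 0.371, 1.7 and 0.696 in c-MYC/FOXO1AAA. The part of these cells in the members' values was not tested.

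Asns, an ATF4 target that makes asparagine, had 9.13, 0.848, 4.68 and 2.38 FPKM in NL, 104, 125 and 121 in c-MYC and 46.8, 50.04 and 46.4 in c-MYC/FOXO1AAA (5.26 ± 0.62, adjusted p = 5.25e-05 for c-MYC against NL). As a percent of the c-MYC mean, Asns, Psat1 and Phgdh were at 7.81, 6.72 and 6.96 in NL 1, 0.725, 0.482 and 0.553 in NL 2, 4.0, 3.67 and 3.72 in NL 3 and 2.04, 1.81 and 1.65 in NL 4, the same order that Bhlha15 and Tmed6 took. Asns, Psat1, Phgdh and Tmed6 meet the rule for the 48 genes above, so their low NL 2 level was fixed by that choice. Bhlha15, with a c-MYC mean of 15 FPKM, does not meet it. For 69 genes chosen in the same way from c-MYC/FOXO1AAA (a mean of at least 20 FPKM, under 1% of it in NL 2), the medians were 0.665% in NL 1, 0.583% in NL 3 and 0.612% in NL 4.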
